A study of Mus musculus with 9 samples.

Results

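The cytosolic ribosomal protein genes of the mouse were followed across naive CD4+ T cells that were freshly isolated, cultured without added cytokine, or cultured with interleukin-1 beta (IL-1b). Members were taken by name from the GENCODE M21 annotation, as protein-coding genes whose symbol is Rpl or Rps followed by a number with at most 1 of the suffixes a, x, y or l, together with Rplp0, Rplp1, Rplp2 and Rpsa. The rule found 80 members among 55487 gene identifiers, of which 46 belong to the large subunit, 31 to the small subunit and 3 to the P stalk. It used no measured value. A further 3 symbols with the same form are pseudogenes and were left out. Of the 80 members, 78 had counts in some library and 77 passed the filter on low counts, among 13043 tested genes in all. Rpl3l and Rpl10l had 0 counts in each of the 9 libraries, and Rpl39l had 4 to 24 counts per library and was not tested. Ribosomal proteins with other kinds of symbol, such as Rack1, Fau and Rps3a1, lie outside the rule and are described apart.

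The cells, called TN cells in the labels, were naive CD4+ T cells of C57BL6/J mice with the WT genotype, taken from lymph nodes, and their polyadenylated RNA was sequenced. The 3 groups of 3 libraries were untreated cells straight after preparation (fresh), cells held in culture over 20 h without IL-1b (cultured), and cells held in culture over 20 h with 10 ng/mL of recombinant IL-1b (IL-1b-treated). IL-1b, made mainly by myeloid cells, is a cytokine of inflammation. The labels do not say whether the replicates came from separate animals or cultures, so that p-values measure only the spread between these libraries, which may be technical.

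Each cytosolic ribosome carries a single copy of nearly every one of these proteins, while the P stalk holds Rplp0 with several copies of Rplp1 and Rplp2. The proteins are made in the cytoplasm, imported into the nucleolus and built onto ribosomal RNA. Their messenger RNAs are among the most abundant and the shortest of a cell, and they typically begin with a terminal oligopyrimidine (TOP) tract, a C at the cap followed by a run of C and T, through which the mTORC1 pathway and the binding protein Larp1 set their translation and stability. Naive T cells are small resting cells with few ribosomes, and ribosome production is a known early part of their activation.

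Library totals were 13518814 to 23056686 counts, and a floor of 3 counts corresponded to 0.130 to 0.222 CPM, which are counts scaled to a common library total. All 11 T cell markers checked, Cd3e and Cd4 among them, were above 0 in some library and passed the filter. After culture 4 of them rose and 7 fell, with a median log2 fold change of -0.21. With IL-1b against cultured cells 7 rose and 4 fell, with a median of 0.12. Markers of other cells were present and did not all move one way after culture. The summed level of 9 B cell markers was 506 to 587 CPM in fresh, 194 to 205 in cultured and 194 to 213 in IL-1b-treated libraries. None of the 9 was at 0 counts throughout. All 9 fell between fresh and cultured cells, with a median log2 fold change of -4.06, so that the sum understates the fall of the typical marker. The 7 neutrophil markers summed to 9.43 ± 3.75 CPM in fresh, 0.257 ± 0.170 in cultured and 0.441 ± 0.516 in IL-1b-treated cells (SD, n = 3). The sums of 4 erythroid and 4 NK cell markers were 1.43 to 5.69 and 5.84 to 7.90 CPM in fresh and 0.0631 to 0.752 and 2.90 to 3.11 in cultured libraries. The 2 CD8 markers went the other way, from 25.8 ± 1.83 CPM in fresh to 54.1 ± 6.04 in cultured and 55.9 ± 3.34 in IL-1b-treated cells, and both rose after culture. The 7 myeloid markers summed to 41.2 to 47.1, 43.2 to 45.5 and 54.0 to 60.5 CPM in the same order. Of the 6 tested 4 fell and 1 rose after culture, with a median log2 fold change of -2.94 although the sum was level. The mitochondrial share of counts was 1.99 to 2.03% in fresh, 2.41 to 2.59% in cultured and 3.11 to 3.40% in IL-1b-treated libraries. The part of these differences in the results on ribosomal protein genes was not tested.

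The ribosomal protein genes took up a larger share of the RNA after culture, and a larger share again with IL-1b. The 80 members together held 8.32, 8.19 and 8.07% of the counts in the 3 fresh libraries, 11.3, 11.5 and 11.5% in the 3 cultured libraries, and 15.3, 15.6 and 15.7% in the 3 IL-1b-treated libraries. No library of 1 group overlapped with another group, and the spread within groups was small beside the steps between them. The mean share was 1.36 ± 0.019 times higher in IL-1b-treated than in cultured cells, 1.39 ± 0.023 times higher in cultured than in fresh cells, and 1.90 ± 0.037 times higher in IL-1b-treated than in fresh cells (SD, n = 3 libraries per group). The exact two-sided permutation test gave p = 0.1 in each of the 3 comparisons, which is the smallest p that 3 against 3 libraries allow, and 0.1 after adjustment over the 3. In bulk RNA a change in the cells' makeup and a change in RNA per cell cannot be told apart.

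On the TPM scale, which divides counts by transcript length before scaling them to a common total, the share was larger and the steps were smaller. Members held 26.9 to 27.2% of TPM in fresh, 33.0 to 33.1% in cultured and 38.8 to 39.3% in IL-1b-treated libraries. The ratios of the means were 1.18, 1.22 and 1.44 for the same comparisons. The share of counts of the large subunit went from 4.20 ± 0.063% to 6.09 ± 0.039%, a ratio of 1.45 ± 0.024, from fresh to cultured cells, and that of the small subunit went from 3.46 ± 0.050% to 4.65 ± 0.033%, a ratio of 1.34 ± 0.022 (SD, n = 3). With IL-1b the ratios against cultured cells were 1.37 ± 0.019 and 1.36 ± 0.017. The difference between the subunits was not tested.

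**Figure D1:**
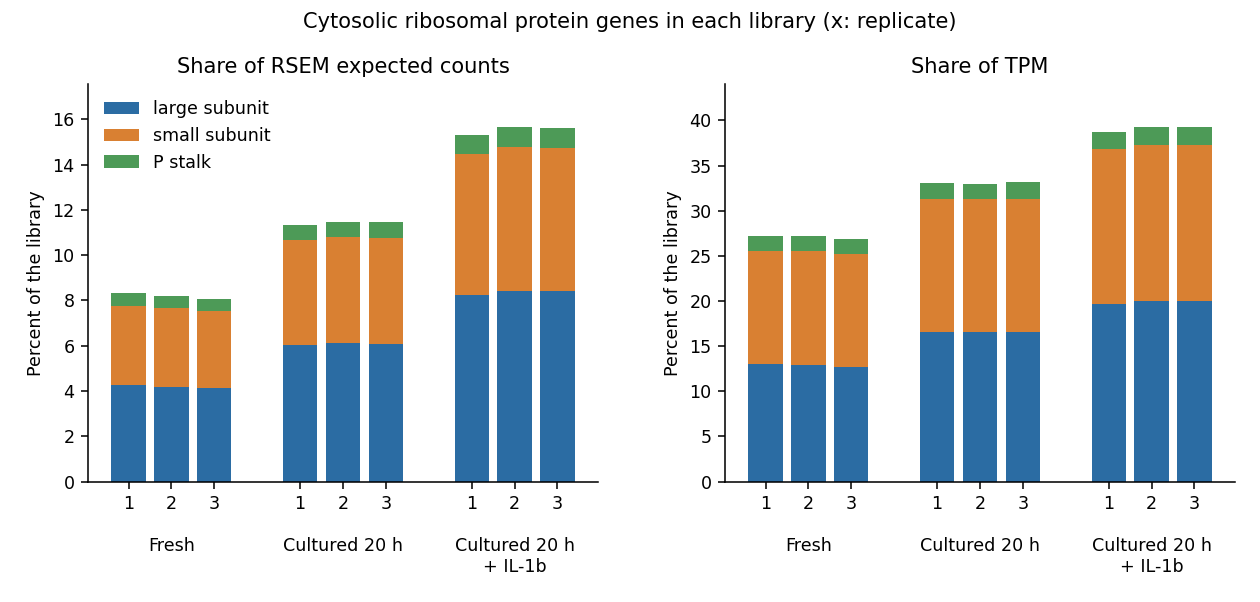
Percent of each library (y axis) held by the large subunit, small subunit and P stalk genes, stacked, for 3 replicates (x axis) of each group, in expected counts (left) and in TPM (right). The stacked height steps up from fresh to cultured to IL-1b-treated libraries in both panels, from 8.07 to 8.32% through 11.3 to 11.5% to 15.3 to 15.7% in counts.

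The first comparison, of cells with and without IL-1b after the same 20 h, asks what the cytokine changed. Nearly the whole family was higher with IL-1b, by a closely similar amount. Of 77 tested members 76 rose and 0 fell at an adjusted p under 0.05, where 15.6% of all tested genes rose and 13.3% fell. The 1 that was not called was Rplp2. The median log2 fold change of the members was 0.59, beside -0.01 for all tested genes, and 68 of the 77 lay between 0.4 and 0.8. The large and small subunits had the same median of 0.59. In 76 members the 3 IL-1b-treated libraries all lay above the 3 cultured ones, as they did in 21.1% of all tested genes.

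The P stalk was divided. Rplp0, which anchors the stalk to the large subunit, measured 4244, 4056 and 4321 CPM in the cultured and 5381, 5647 and 5661 CPM in the IL-1b-treated libraries. It rose by a log2 fold change of 0.40 ± 0.024 (SE, adjusted p = 1.3e-11). Rplp1, a partner of Rplp2 in the dimers that recruit elongation factors, measured 2006, 1983 and 2061 CPM and then 3054, 3196 and 3208 CPM, a log2 fold change of 0.64 ± 0.027 (adjusted p = 2.5e-14). In both genes every IL-1b-treated library was above every cultured one. Rplp2 measured 542, 546 and 563 CPM in the cultured and 515, 541 and 531 CPM in the IL-1b-treated libraries. Its 3 IL-1b-treated libraries lay just below the cultured ones, and the log2 fold change of -0.06 ± 0.036 did not pass the test (adjusted p = 0.27).

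In the large subunit all 43 tested members rose. Rpl38, which in mice is needed for the translation of part of the Hox messenger RNAs, had the largest fold change of the family, from 330, 367 and 341 CPM to 568, 578 and 595 CPM. Its groups stood well apart, with a log2 fold change of 0.75 ± 0.042 (adjusted p = 4.1e-12). Next among large subunit genes came Rpl41, which encodes the shortest ribosomal protein (0.69), and Rpl31 (0.69). Members with known side roles lay near the family median. Rpl5 and Rpl11, which with 5S RNA can bind and inhibit Mdm2, rose by 0.61 and 0.60. Rpl22, which is required for the development of alpha-beta T cells, rose by 0.60, and Rpl26, which can bind the messenger RNA of Trp53, also by 0.60. Rpl3 at the peptidyl transferase centre rose by 0.48, and Rpl10, which joins late in assembly, by 0.54. Rpl13a, also known from the GAIT translation-silencing complex, rose by 0.67, Rpl39 of the exit tunnel by 0.62, Rpl10a by 0.59 and Rpl23 by 0.56. Rpl8, a core protein near the peptidyl transferase centre, moved least in this subunit, from 1934, 1913 and 2015 CPM to 2155, 2379 and 2367 CPM. The groups did not overlap, and the log2 fold change was 0.24 ± 0.032 (adjusted p = 5.6e-06). Rpl28, which budding yeast lacks, followed with 0.29 ± 0.026.

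All 31 small subunit members rose as well. Rps29 (0.70), Rps16 (0.69) and Rps14 (0.69) rose most. Rps6, the substrate of the S6 kinases, went from 2718, 2709 and 2720 CPM to 3871, 3880 and 3898 CPM, with replicates within a narrow range and a log2 fold change of 0.52 ± 0.020 (adjusted p = 7.8e-15). Rps19, the gene most often mutated in Diamond-Blackfan anaemia, rose by 0.50. Rps4x rose by 0.65, Rps20 by 0.67, Rps25 by 0.59, Rps28 by 0.68, Rps3 by 0.58, Rpsa by 0.60 and Rps27 by 0.45. Rps27a, made as a fusion with ubiquitin, rose by 0.64, and Rps27l, a scarce paralogue of Rps27 and a known p53 target, by 0.57 ± 0.11. With GC and length trends removed from each library, a setting chosen after seeing the data, Rps27 was lower (-0.14), and the difference of -0.04 for Rps27l was not called.

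The lowest fold changes were again in a few genes. Rps9, which lies at the messenger RNA entry of the small subunit, measured 1446, 1414 and 1460 CPM in the cultured and 1522, 1578 and 1561 CPM in the IL-1b-treated libraries. The groups were separate but close, and the rise was 0.11 ± 0.024 (adjusted p = 0.001). Its neighbour Rps2 measured 1582, 1464 and 1540 CPM and then 1693, 1805 and 1764 CPM, a rise of 0.20 ± 0.028 (adjusted p = 1.2e-05). Rps13 rose by 0.31, but was lower (-0.09) with GC and length trends removed. In all, 7 of the 77 members had a log2 fold change under 0.35.

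The sizes depend on the scale. TPM add up to the same total in every library and had no TMM scaling, which was used for the counts. A larger share of the family therefore lowers, by construction, the TPM of genes that did not rise with it. With TMM scaling and an effective length offset, all 76 calls kept their direction. With limma on log2(TPM + 1), 66 members rose and 3 fell with a median of 0.26. With the trends on GC content and length taken out of each library, 69 rose and 5 fell with a median of 0.24. The shares of all tested genes called in these and the other alternative fits were not computed. In the TPM fit Rplp2 (-0.37), Rps9 (-0.22) and Rps2 (-0.13) were lower with IL-1b, and the difference of -0.09 for Rpl8 did not pass the test.

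**Figure D2:**
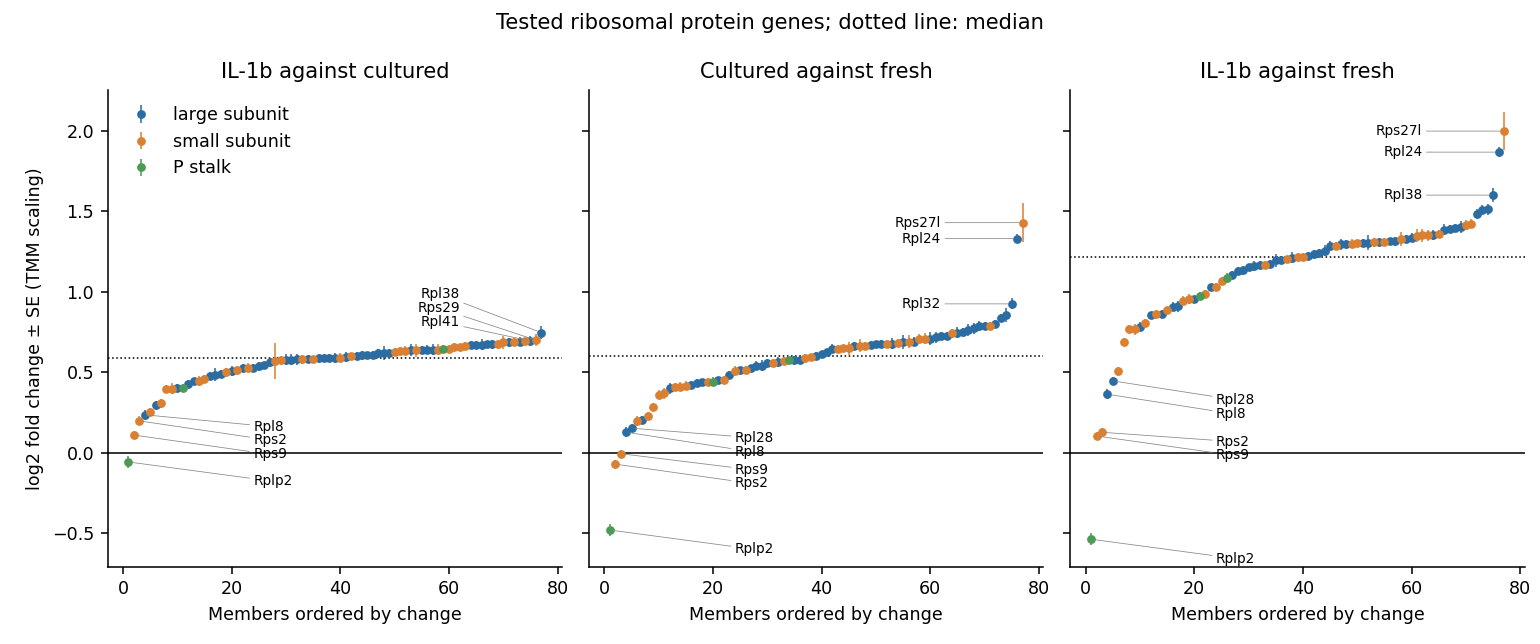
The 77 tested members ordered by log2 fold change (y axis, points with SE, TMM-scaled counts) in each of the 3 comparisons, coloured by subunit, with the median dotted. Almost all points lie above 0 in a narrow band, around medians of 0.59, 0.60 and 1.21, while Rplp2, Rps9, Rps2 and Rpl8 lie at the lower end and Rps27l and Rpl24 at the upper end in the comparisons with fresh cells.

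The comparison of cultured with fresh cells asks what 20 h of culture without IL-1b changed. Again most of the family was higher, with more difference between members. Of 77 tested members 74 rose and 2 fell, where 29.4% of all tested genes rose and 28.9% fell. The median log2 fold change was 0.60, beside 0.00 for all tested genes. The SD of the fold changes over members was 0.26, against 0.14 with IL-1b, while the median SE of a member was 0.027 in both comparisons. The median was 0.66 in the large and 0.57 in the small subunit. The 2 members that fell were Rplp2 and Rps2, and Rps9 was not called. With log2(TPM + 1) the counts were 67 higher and 6 lower with a median of 0.34, and with GC and length trends removed 70 and 4 with a median of 0.32.

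Rplp2 stood apart most. It measured 819, 756 and 725 CPM in the fresh and 542, 546 and 563 CPM in the cultured libraries. Every cultured library was below every fresh one, and the log2 fold change was -0.48 ± 0.036 (adjusted p = 9.1e-11). Over the same step Rplp0 went from 2872, 2802 and 2811 CPM to the cultured levels above, a rise of 0.57 ± 0.024, and Rplp1 from 1547, 1443 and 1462 CPM, a rise of 0.44 ± 0.027. Expressed per length, the Rplp2 messenger was 42.4, 42.1 and 40.2% of that of Rplp1 in fresh, 21.0, 22.2 and 21.8% in cultured, and 13.5, 13.6 and 13.7% in IL-1b-treated libraries. The stalk messengers therefore stood in different proportions in the 3 groups, with no overlap between libraries. The gene's mean length in the deposited tables, which follows the isoforms counted, was 563 ± 3.85 bases in fresh, 571 ± 5.10 in cultured and 566 ± 6.62 in IL-1b-treated libraries (SD, n = 3).

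In the small subunit Rps2 measured 1628, 1588 and 1601 CPM in fresh cells. The cultured libraries lay just below, and the fall of 0.07 ± 0.028 on the log2 scale had an adjusted p of 0.037, which ranged from 0.013 to 0.26 when single libraries were left out and missed the threshold in 4 of those cases (without fresh replicate 1 or 3, or without cultured replicate 2 or 3). Rps9, with 1452, 1429 and 1456 CPM in fresh cells, overlapped with cultured cells and had a log2 fold change of -0.01 ± 0.024 (adjusted p = 0.85). Rps13 (0.20), Rps15 (0.23) and Rpsa (0.29), known also as the laminin receptor precursor, rose less than most. Rps15 was lower in cultured cells on the TPM scale (-0.07) and with the length trend removed (-0.09), and Rps13 was lower with the length trend (-0.09) or the GC and length trends (-0.17) removed. Rps27l rose most, from 11.8, 8.73 and 7.95 CPM to 27.6, 25.01 and 25.4 CPM. Its groups were far apart, and the log2 fold change was 1.43 ± 0.12 (adjusted p = 7.9e-10). Its much more abundant relative Rps27 rose by 0.51 ± 0.031, and the level of Rps27l per length was 0.445 to 0.654% of that of Rps27 in fresh and 1.00 to 1.17% in cultured libraries. Other small subunit genes of the panel rose by 0.36 (Rps19) to 0.74 (Rps20), with Rps6 at 0.68 and Rps14 at 0.67.

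In the large subunit all 43 tested members rose. Rpl24, whose protein forms a bridge to the small subunit and whose mouse mutant is the Belly spot and tail strain, measured 334, 330 and 315 CPM in the fresh and 808, 847 and 807 CPM in the cultured libraries. It more than doubled in every library, with a log2 fold change of 1.33 ± 0.030 (adjusted p = 3.4e-20). Rpl32 (0.92) and Rpl38 (0.85) came next. Rpl15 rose by 0.80, Rpl11 by 0.79 and Rpl41 by 0.79. At the lower end, Rpl8 went from 1846, 1763 and 1755 CPM to the cultured levels above, a rise of 0.13 ± 0.032 (adjusted p = 0.0015). Rpl28 rose by 0.15 and Rpl12, which binds at the base of the stalk, by 0.20. The largest change of Rpl24 was also present on the TPM scale (1.05) and with GC and length trends removed (1.01). Rpl8 (-0.13) and Rpl28 (-0.17) were lower in cultured cells on the TPM scale, which had no TMM scaling. Both genes also had negative log2 fold changes with the length trend removed, a fit that kept TMM scaling. With TMM scaling and an effective length offset, 74 of the 76 calls after culture kept their direction and 0 turned. With the length trend removed 70 kept it and 4 turned. The fall in B cell markers described above occurred over the same step.

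The comparison of IL-1b-treated with fresh cells spans both differences, and shares its libraries with them. Of 77 tested members 76 rose and 1 fell, where 32.9% of all tested genes rose and 32.6% fell. The median log2 fold change was 1.21, a 2.32-fold rise, beside -0.01 for all tested genes, and 55 members rose by 1 or more. Rplp2 fell by 0.54 ± 0.036 on the log2 scale (adjusted p = 8.0e-12). The smallest rises were in Rps9 (0.10 ± 0.024), Rps2 (0.13 ± 0.028), Rpl8 (0.36 ± 0.032) and Rpl28 (0.45 ± 0.026). The largest were in Rps27l (2.0 ± 0.12), Rpl24 (1.87 ± 0.030), Rpl38 (1.60 ± 0.043) and Rpl32 (1.51). Rpl24 reached 1179, 1204 and 1190 CPM and Rps27l 38.3, 40.6 and 36.8 CPM with IL-1b, above every cultured and every fresh library in both genes. Of the 77 members, 74 rose in each of the 2 steps, which share the cultured libraries. Among all tested genes 15.6% rose in the IL-1b step and 29.4% in the culture step. The share of all tested genes that rose in both was not computed. On log2(TPM + 1) 70 members rose and 5 fell with a median of 0.62, and Rplp2 (-1.17), Rps9 (-0.49), Rps2 (-0.46), Rpl8 (-0.23) and Rpl28 (-0.20) were the 5 that fell.

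**Figure D3:**
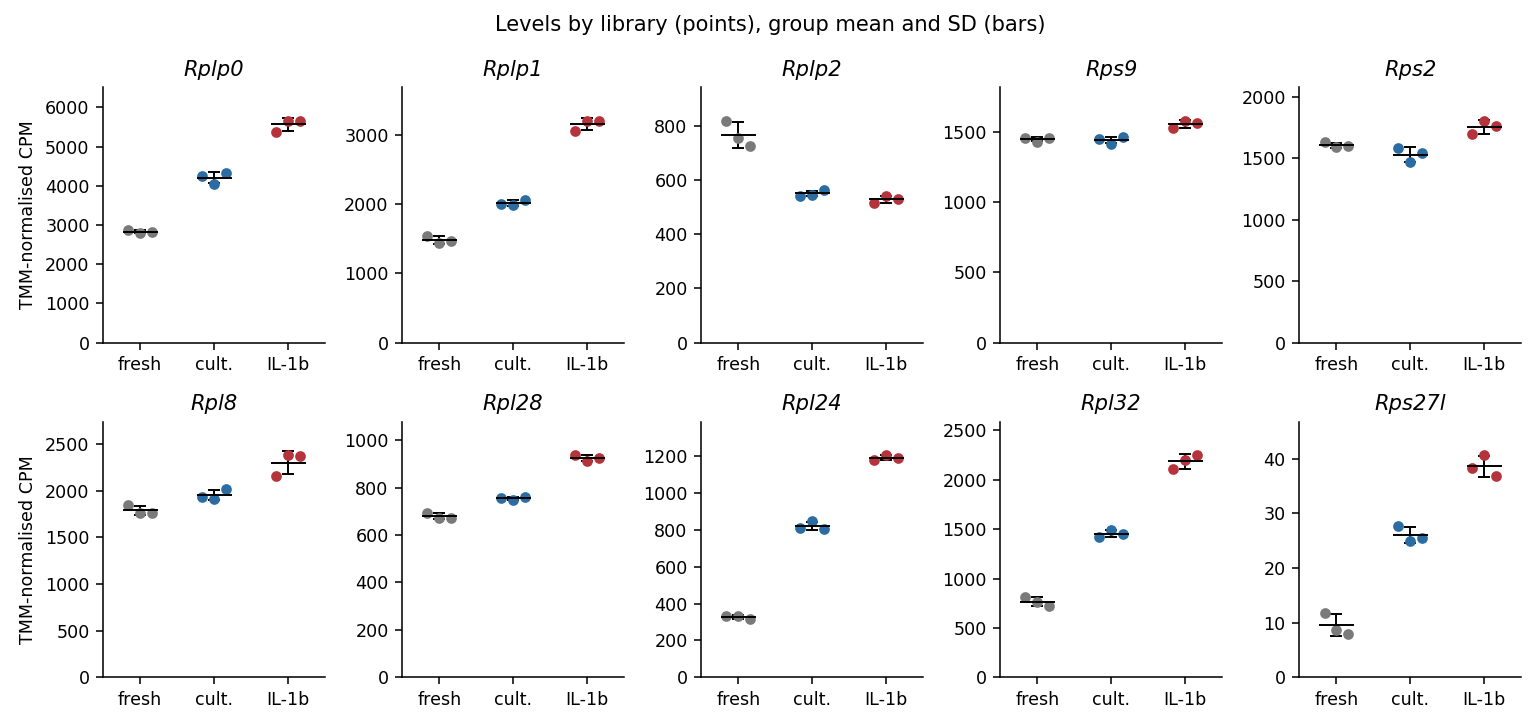
TMM-normalised CPM (y axis, from 0) in each library (points) with group mean and SD (bars) for the 3 stalk genes, 4 genes at the lower end and 3 at the upper end. Rplp0 and Rplp1 step up between groups while Rplp2 goes from 725 to 819 in fresh to 515 to 541 in IL-1b-treated libraries, Rps9 and Rps2 are almost level, and Rpl24 goes from 315 to 334 up to 1179 to 1204.

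Whether the proportions among members moved was tested with each library scaled to the summed counts of the family, so that a member that follows the family has a log2 fold change near 0. On this scale most other genes are lower by construction, since the family's share rose. With IL-1b against cultured cells 27 members were above the family, where 0.391% of all tested genes were, and 17 were below, where 69.5% of all tested genes were. For cultured against fresh cells 41 were above (8.07% of all tested genes) and 22 below (60.8%). For IL-1b-treated against fresh cells 47 were above (4.13%) and 24 below (79.4%). These splits depend on how the family is summarised. With the median ratio of the members as the scale they were 14 and 24, 28 and 27, and 33 and 30, in the same order of comparisons. The shares of all tested genes on that scale were not computed. With GC and length trends removed, 24 of the 44 calls with IL-1b against cultured cells kept their direction and 10 were called in the opposite one. For cultured against fresh cells 39 of 63 kept it and 8 turned, and for IL-1b-treated against fresh cells 42 of 71 kept it and 17 turned.

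The genes furthest below the family were much the same few. With IL-1b against cultured cells these were Rplp2 (-0.62), Rps9 (-0.45), Rps2 (-0.36) and Rpl8 (-0.32). For cultured against fresh cells they were Rplp2 (-1.01), Rps2 (-0.60), Rps9 (-0.54), Rpl8 (-0.40) and Rpl28 (-0.38). In all, 12 members were below the family in both steps, 20 were above it in both, and 4 were above it in one and below it in the other, where the shares of all tested genes were 50.5, 0.169 and 5.17%. With GC and length trends removed these counts were 23, 13 and 12. The 4 were Rpl13a, Rplp1 and Rps18, below the family after culture and above it with IL-1b, and Rpl3, which did the opposite, all by 0.14 or less. Rpl3 with IL-1b (0.12) and Rplp1 after culture (0.06) were above the family once GC and length trends were removed. Above the family, the differences with IL-1b were small. Those with the lowest adjusted p, Rps16, Rps14, Rpl38, Rpl13a and Rpl35, were above it by 0.11 to 0.19. After culture the scarce Rps27l was furthest above it (0.90), followed by Rpl24 (0.80 ± 0.030). Rpl32 was above it by 0.39, Rpl15 by 0.27 and Rpl11 by 0.25. From fresh to IL-1b-treated cells the same 5 genes as after culture were lowest, from Rplp2 at -1.63 to Rpl28 at -0.65, and Rpl24 (0.78), Rpl38 (0.51), Rpl32 (0.42) and Rpl7 (0.31) were among those with the lowest adjusted p above the family.

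Rps9 against Rps16 shows the size of this shift per length. Rps16 is a small subunit gene near the upper end with IL-1b against cultured cells. After culture its rise of 0.59 was near the median member. The TPM of Rps9 was 71.9, 74.95 and 75.7% of that of Rps16 in fresh, 48.9, 44.0 and 48.2% in cultured, and 30.1, 31.9 and 31.1% in IL-1b-treated libraries. The groups were far apart in this ratio, although the CPM of Rps9 itself barely moved. The pair was chosen after its values were seen.

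In TPM, which allows levels to be compared between genes, members differed widely. Rpl13a was first in all 3 groups, with 12934 ± 265 in fresh, 15637 ± 134 in cultured and 19882 ± 659 TPM in IL-1b-treated cells (SD, n = 3). In fresh cells Rps27 (10386 ± 210), Rplp1 (8680 ± 155) and Rps14 (8348 ± 135) followed. Rplp1 and Rps14 were close to each other, but their libraries did not overlap. With IL-1b Rps14 measured 14002 ± 236 TPM. Rps27l was the lowest tested member in every group, with 54.6 ± 10.3 TPM in fresh and 144 ± 6.69 in IL-1b-treated cells. Rplp2 went from rank 31 of the 80 in fresh cells to 70 in cultured and 75 in IL-1b-treated cells, Rps9 from 15 to 45 and 60, Rps2 from 35 to 59 and 68, and Rpl8 from 12 to 31 and 52. In the other direction Rpl30 went from 45 to 33 and 25.

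Members are short, and in these libraries short transcripts as a class were higher after culture and with IL-1b. The mean effective length of tested members, which is the length over which a fragment can start, was 128 to 1277 bases with a median of 423, beside 2037 bases for all tested genes. The effective length behind the median count was 2359 to 2380 bases in fresh, 2100 to 2136 in cultured and 1781 to 1794 in IL-1b-treated libraries. Among 3390 other tested genes in the members' range of effective length, 28.1% rose with IL-1b against cultured cells with a median log2 fold change of 0.18, 36.0% rose in cultured against fresh cells with 0.20, and 45.6% rose in IL-1b-treated against fresh cells with 0.36. Under 300 bases, 18 members had a median of 0.64 with IL-1b and 346 other genes one of 0.46. From 300 to 600 bases these medians were 0.59 for 39 members and 0.30 for 664 other genes, and from 600 to 1300 bases 0.57 for 20 members and 0.14 for 2541 other genes. For cultured against fresh cells the medians of members were 0.67, 0.60 and 0.57 and those of other genes 0.26, 0.36 and 0.16 in the same 3 bands. With the trend on effective length removed, 74 members rose and 1 fell with IL-1b with a median of 0.40. After culture 68 rose and 7 fell with a median of 0.35. The shares of all tested genes called in this fit were not computed.

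GC content differed little between members and other genes. Its median was 51.9% for tested members, with a range of 41.3 to 60.8%, and 50.9% for all tested genes with a value. Across the 77 members the log2 fold change was weakly and inversely related to GC content, with a Pearson correlation of -0.24 for IL-1b against cultured and -0.35 for cultured against fresh cells. Members share the libraries and the scaling, so these values are descriptions. The 6 members with the lowest fold changes had a median GC content of 55.5%.

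**Figure D4:**
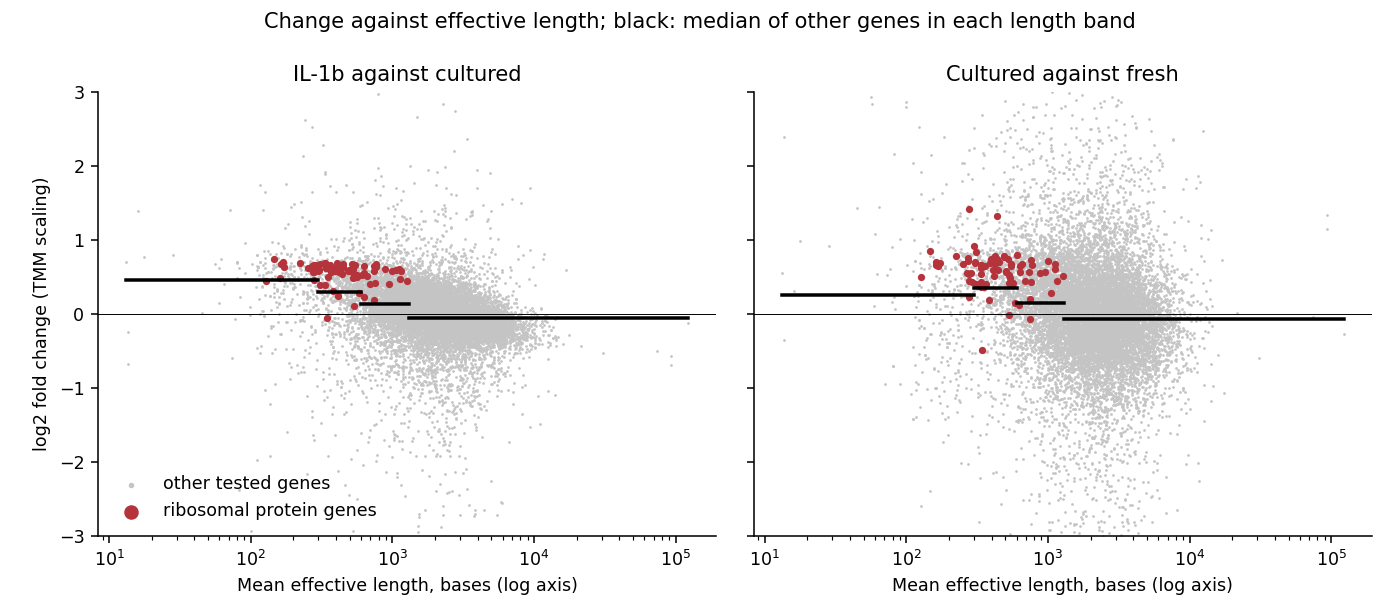
Log2 fold change (y axis) against mean effective length (x axis, log scale) for members (red) and other tested genes (grey), with the median of other genes in 4 length bands (black), for IL-1b against cultured (left) and cultured against fresh cells (right). Members lie mostly above the black lines of their bands, and 37 and 267 other genes beyond 3 on the y axis are not drawn.

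Start sites were looked at because members moved together and because the TOP tract is the known shared feature of the family. RefSeq sequences around the start (GRCm38.p6) were on hand for 60 of the 80 members. A C followed by 5 bases that are each C or T, sought on the coding strand from 20 bases before to 50 after the annotated start, was found in 83.3% of these 60 and in 42.3% of 9186 tested genes with an entry. The longest unbroken run of C and T over the start had a median of 10 bases in members and 5 in all tested genes. The letters CCGGAAG, the core bound by ETS family factors, were found on either strand of the 300 base window in 40.0% of members and 20.1% of tested genes. AAGATGGC, the core bound by Yy1, was found in 6.67 and 5.12%, and TATAAA in 8.33 and 6.46%. These are matches of letters and not sites shown to be used. Members with and without the tract had median log2 fold changes of 0.58 (48 members) and 0.60 (9 members) with IL-1b, and 0.56 and 0.57 after culture.

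The 40 bases around the annotated start are shown to let the tracts be compared, for the 4 members with an entry and the lowest fold changes with IL-1b, the 4 with the highest, and Rpl24 and Rps27l, which rose most after culture. Each sequence reads 5′ to 3′ with 20 bases before the start and 20 from the start on, and capitals mark its longest unbroken run of C and T.
Rplp2, chr7:141447631-141447670, plus strand: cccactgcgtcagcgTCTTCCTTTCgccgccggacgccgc
Rps9, chr7:3704021-3704060, plus strand: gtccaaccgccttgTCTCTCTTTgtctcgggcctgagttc
Rps2, chr17:24720043-24720082, plus strand: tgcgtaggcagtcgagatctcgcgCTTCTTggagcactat
Rpl28, chr7:4792945-4792984, plus strand: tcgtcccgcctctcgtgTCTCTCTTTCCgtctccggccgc
Rpl38, chr11:114668560-114668599, plus strand: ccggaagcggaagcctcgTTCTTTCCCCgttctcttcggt
Rpl41, chr10:128549149-128549188, minus strand: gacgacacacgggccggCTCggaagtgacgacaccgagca
Rps16, chr7:28350669-28350708, plus strand: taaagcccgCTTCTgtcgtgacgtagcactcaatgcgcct
Rpl31, chr1:39367831-39367870, plus strand: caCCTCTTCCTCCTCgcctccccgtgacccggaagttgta
Rpl24, chr16:55966255-55966294, plus strand: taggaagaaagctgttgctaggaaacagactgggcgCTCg
Rps27l, chr9:66946066-66946105, plus strand: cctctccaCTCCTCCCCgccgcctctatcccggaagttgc

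At the lower end Rplp2, Rps9 and Rpl28 carry runs of 10, 9 and 11 bases that cross the annotated start, while the longest run of Rps2 has 6 bases and lies after it. At the upper end Rpl38 has a run of 10 bases across the start. Rpl31 and Rps27l have runs of 13 and 9 bases before it, and the longest runs of Rps16, Rpl41 and Rpl24 in this window have 5, 3 and 3 bases. The printed runs thus had 6 to 11 bases at the lower end and 3 to 13 at the upper end. These are few sequences, and a relation to the fold changes was not tested. For Rpl41 the tract as defined above was found in the wider window, despite its short run here. An annotated start can differ from the one used in these cells.

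Ribosomal proteins outside the naming rule were mostly higher as well. Of 8 such genes and close relatives, 7 rose and 0 fell with IL-1b, 7 rose and 1 fell after culture, and 8 rose from fresh to IL-1b-treated cells, with medians of 0.49, 0.50 and 0.93. Fau, which is made as a fusion with a ubiquitin-like protein, rose by 0.54 with IL-1b, and Rack1, the scaffold on the small subunit, by 0.44. Rps3a1, a small subunit gene that is not one of the 8, rose by 0.62 with IL-1b and 0.50 after culture. The exception was Rpl22l1, the paralogue of Rpl22, which measured 101, 93.7 and 103 CPM in fresh, 84.6, 87.8 and 84.1 in cultured and 120, 122 and 128 in IL-1b-treated libraries. It fell by 0.21 on the log2 scale after culture and rose by 0.53 with IL-1b, and the 3 groups did not overlap. Its level per length was 26.4 to 30.5% of that of Rpl22 in fresh and 16.2 to 16.8% in cultured libraries.

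Of the other messengers known to begin with a TOP tract, most rose. Of 20 tested, 15 rose and 2 fell with IL-1b, 14 rose and 4 fell after culture, and 15 rose and 5 fell from fresh to IL-1b-treated cells, with medians of 0.30, 0.27 and 0.62. Npm1, a nucleolar chaperone, rose by 0.59 with IL-1b and 0.90 after culture, and the elongation factor Eef1a1 by 0.37 and 0.57. Pabpc1, the poly(A)-binding protein, fell by 0.21 and 0.49. After culture Eif3e (1.00), Btf3 (0.88) and Naca (0.76) also rose by more than the median member, while Vim (-0.77), Eef1g (-0.28) and Eif3f (-0.17) fell. The difference between this list and the members was not tested. Eef2, which moves the ribosome along the messenger, was not called in either step (-0.06 and -0.02). Among 19 regulators of TOP messengers and of mTORC1, 2 rose and 5 fell with IL-1b, and 6 rose and 8 fell after culture. Beside these lists, 15.6% of all tested genes rose and 13.3% fell with IL-1b, and 29.4% rose and 28.9% fell after culture. Larp1, the TOP-binding protein, fell by 0.37 and 0.13. Mtor fell by 0.63 after culture, and its difference of -0.16 with IL-1b was not called. In the other direction Eif4ebp1, a scarce gene, rose by 1.27 ± 0.27 after culture. Its difference of 0.64 with IL-1b was not called.

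Of 22 ribosome assembly genes, 10 rose and 1 fell with IL-1b and 10 rose and 8 fell after culture, with medians of 0.12 and -0.01. From fresh to IL-1b-treated cells 9 rose and 7 fell, with a median of -0.07. Of all tested genes 15.6% rose and 13.3% fell with IL-1b, and 29.4% rose and 28.9% fell after culture. From fresh to IL-1b-treated cells 32.9% rose and 32.6% fell. Those that rose in both steps included the box H/ACA proteins Nop10 (0.64 with IL-1b) and Nhp2 (0.66). Polr1a, the largest subunit of RNA polymerase I, fell by 0.31 with IL-1b and rose by 0.14 after culture. Of 6 genes of the p53 axis on which free ribosomal proteins act, 0 rose and 2 fell with IL-1b, and 2 rose and 3 fell after culture. Mdm2 was not called in either step, but was lower in IL-1b-treated than in fresh cells (-0.14, adjusted p = 0.025). The 78 mitochondrial ribosomal protein genes, encoded in the nucleus for the ribosome of that organelle, showed 36 higher and 0 lower with IL-1b and 43 higher and 8 lower after culture. Their medians were 0.25 and 0.31, beside 0.59 and 0.60 for the cytosolic members.

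Across the 9 libraries the log2 CPM of single members followed the mean of the members closely, with a median Pearson correlation of 0.997 and 73 of 77 members above 0.95. The 4 below were Rpl8 (0.947), Rps9 (0.79), Rps2 (0.57) and Rplp2 (-0.89). As the libraries form 3 groups these values mainly reflect the order of the group means, and 8.07% of 12966 other tested genes were also above 0.95. The 10 other genes most like the mean of the members were Cd3d, Rpl36al, Psma7, Snrpg, Ngdn, Tpt1, Atp5j2, Gm15427 (a processed pseudogene), Tmsb4x and Mrpl18. Cd3d, a chain of the T cell receptor complex, came first with 273, 380 and 524 CPM as group means. It is 1 of the 11 T cell markers, of which 7 fell after culture.

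Counting of this family is exposed to its many processed pseudogenes. Of 297 annotated pseudogenes named after a member, 139 had counts, and together they held 0.049 to 0.093% of the counts in a library. Against the counts of the parent gene they came to at most 4.69% (Rps23), and pseudogenes under other kinds of name were not counted. Of the 55 pseudogenes named after a member that were tested, 24 rose and 0 fell with IL-1b. Reads shared between a gene and its copies cannot be told apart in these tables beyond the division made by RSEM. The strand setting of the counting is not given in the sources used here, so reads of overlapping antisense genes may be included. The scarce tissue paralogues were at or near 0. Rpl3l of striated muscle and Rpl10l of testis had 0 counts, which allows up to 0.130 to 0.222 CPM per library for counting error alone, and Rpl39l had 5, 8 and 4 counts in fresh, 4, 8 and 7 in cultured and 24, 9 and 17 in IL-1b-treated libraries.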

How the data were processed

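Libraries of polyadenylated RNA were prepared using NEBNext Ultra II Directional reagents, per the labels' protocols. The submitters' processing notes name STAR, RSEM and the build mm10; their versions, the annotation and the strand setting were not given in the sources used here. The deposited tables hold, per the file headers, RSEM expected counts, in which reads that match several genes are divided among them, without normalisation. They also hold TPM values, deposited as RSEM computed them, and gene and effective lengths.

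Identifiers were matched to GENCODE M21 (GRCm38), by which 55141 of 55487 (99.4%) received a symbol. Expected counts were rounded. edgeR 4.0.16 in R 4.3.3 (TMM scaling, genes kept by filterByExpr, 1 quasi-likelihood fit of the 3 groups, F tests with Benjamini-Hochberg adjustment over 13043 tested genes, threshold 0.05) gave the tests, and a second fit replaced TMM with the summed counts of the tested members. CPM of single genes are TMM-normalised, while the summed CPM of cell markers and the floor of 3 counts use the plain library total. The sign ± gives the SE of a fold change or the SD of a level, and the biological coefficient of variation was 0.0665. The precision rests on 3 libraries per group. Alternatives were DESeq2 1.42.0, limma 3.58.1, other scalings and filters, length and GC corrections (mgcv 1.9.3 or loess), and leaving out each library. The scripts were tested on simulated data.

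Members and lists were chosen with earlier results of these data known. Genes were named by a fixed panel, by the 5 largest and 5 smallest fold changes in each comparison, by calls against the majority and, against the family, by the 5 smallest adjusted p each way. The pairs compared as proportions, and Rps18, Rpl30, Rpl12, Rps15 and a few others near the ends of the order, were added after their values were seen. A few genes that these rules name are not reported here.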

Additional observations from a re-analysis of the deposited data

How the results depend on the processing

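Sizes depended on scaling and on corrections for length and GC content more than on the test or on single libraries. Under library size alone the median log2 fold changes of members were 0.47 (IL-1b against cultured), 0.55 (cultured against fresh) and 1.04 (IL-1b against fresh), with 1 and 2 members lower in the first and last. With limma on log2(TPM + 1) or log2(TPM + 0.1), both without TMM scaling, medians were 0.26, 0.34 and 0.62, with 3, 6 and 5 members lower. With the length trend removed they were 0.40, 0.35 and 0.75, with 1, 7 and 3 lower, and with GC and length trends removed 0.24, 0.32 and 0.62, with 5, 4 and 4 lower. An effective length offset gave 1.17 for IL-1b against fresh, and 1 member lower for cultured against fresh, as did a test against a 1.2-fold change. Shares of all tested genes called were not computed for these settings. The shares of TPM rose by ratios of 1.18, 1.22 and 1.44. Against the family, removing GC and length trends gave 37 members below for IL-1b against cultured, and 27 and 31 above for cultured and IL-1b against fresh, and the median ratio of members gave 14 above for IL-1b against cultured.

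Libraries with the same replicate number showed no shared deviations from their group means (correlations from -0.03 to 0.02). Such correlations cannot exclude a common origin of these libraries. With a replicate block 76, 74 and 76 members rose, and 1 member in place of 2 was lower for cultured against fresh. Leaving out single libraries gave 1 to 2 there, with 1 without fresh replicate 1 or 3 or cultured replicate 2 or 3, and kept the counts of members that rose.

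Among the members named here, single values reversed. For IL-1b against cultured, Rps9 was -0.0060 (library size), -0.22 (both TPM fits), -0.057 (length) and -0.12 (GC and length). In both TPM fits Rps2 was -0.13, Rpl8 -0.094, Rpl28 -0.036 and Rps13 -0.030, and with GC and length removed Rps13 was -0.087, Rps27 -0.14 and Rps27l -0.037. For cultured against fresh, Rpl8 was -0.13, Rpl28 -0.17, Rps15 -0.066, Rps13 -0.033 and Rpl12 -0.032 (TPM). With length removed Rpl8 was -0.097, Rpl28 -0.077, Rps15 -0.092 and Rps13 -0.092, and with GC and length removed Rps13 was -0.17. For IL-1b against fresh, Rps9 was -0.065 (library size), -0.49 (TPM), -0.30 (length) and -0.28 (GC and length), Rps2 -0.042 (library size), -0.46 (TPM) and -0.19 (length), Rpl8 -0.23 (TPM) and -0.0053 (length), Rpl28 -0.20 (TPM), and Rps13 -0.063 (TPM) and -0.26 (GC and length). Against the family, with GC and length removed, Rpl3 was 0.12 for IL-1b against cultured, and Rpl13a 0.0062 and Rplp1 0.060 for cultured against fresh. The cause was not tested. Groups of 3 limit precision, and the depth of the tables does not, except for Rpl39l and Rps27l.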
